A study of Gallus gallus with 18 samples.

Results

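The genes described here belong to bone morphogenetic protein (BMP) signalling and were followed through the early growth of the chick trigeminal ganglion. They are the ligands BMP2, BMP4, BMP5, BMP7 and GDF10, the secreted antagonist NOG, the intracellular inhibitor SMAD6, and the target genes ID1, ID2 and ID3. They were taken by symbol from the annotated table of gene counts, where each symbol marked 1 row, so that all 10 were found among 30108 genes. All 10 also passed the filter on low counts, which left 17724 genes for testing.

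The tissue was trigeminal ganglia pooled from wildtype chick embryos at 3 Hamburger-Hamilton (HH) stages, which order embryos by their external form, namely HH13-14, HH15-16 and HH17-18. Each stage had 3 pools, called biological replicates in the labels, and the labels name no treatment or transgene. Poly(A)-enriched RNA of each pool was sequenced as 2 technical replicates, 1 on lane 7 and 1 on lane 8, and their counts were summed. The number of embryos in a pool is not given in the sources used here, so the spread between pools is that between such pools and not between single embryos.

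BMPs are secreted proteins that bring together type I and type II receptor kinases on the cell surface. The active receptors phosphorylate SMAD1, SMAD5 and SMAD9, which enter the nucleus with SMAD4 and switch on targets such as the ID genes and SMAD6. Noggin, the product of NOG, binds BMPs outside the cell and keeps them from their receptors. The trigeminal ganglion is built from neural crest and from placodal ectoderm, and BMPs made by the ectoderm and the dorsal neural tube are known to act on both. In mouse, BMP4 from the skin of the face is known to influence the identity of trigeminal neurons.

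The 18 libraries held 26505315 to 34424153 counts and the 9 pools 53458986 to 68083147. Levels are given as CPM, a gene's counts relative to the library total after TMM scaling, and they are not corrected for gene length, so levels of different genes are not compared. Pools of a stage correlated with r of 0.976 to 0.991 in log2 CPM over genes. Pool 1 of HH15-16 stood apart, with a weight of 0.334 in a fit that weights samples by their fit, while the other pools had weights of 0.675 to 2.15. It had the highest summed level of 9 neural tube markers, 571 CPM, and the lowest of 7 neuronal markers, 889 CPM, so values without it are given beside several results.

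Markers of the ganglion were present, some of them at low CPM. TUBB3, a neuronal tubulin, averaged 885, 771 and 977 CPM at HH13-14, HH15-16 and HH17-18, and ISL1, a sensory neuron transcription factor, 23.1, 20.4 and 24.6 CPM. POU4F1, from the same neuronal list, averaged 1.74, 1.44 and 2.02 CPM, and the placode marker NEUROG1 0.505, 1.42 and 1.55 CPM. Markers of other cells were present too, and none of the listed markers found in the table was at 0 in all pools. The 4 blood markers found, of 8 listed, summed to 492 to 669, 467 to 1060 and 910 to 1420 CPM at the 3 stages. The 6 macrophage markers summed to 14.3 to 18.4, 18.7 to 38.7 and 36.7 to 81.6 CPM. In bulk tissue, fewer cells of a type and less RNA per cell cannot be told apart.

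Over the whole interval 4 of the 10 genes passed the test, 2 in each direction. GDF10 and BMP5 rose, while BMP4 and NOG fell. The test was the quasi-likelihood test of edgeR on all 9 pools, two-sided, at a Benjamini-Hochberg adjusted p under 0.05 over all genes tested. Of all genes tested, 4.51% passed between HH17-18 and HH13-14, 2.4% as higher and 2.12% as lower. The median log2 fold change was -0.16 over the 10 genes and 0.02 over all genes, and the median absolute one was 0.59 and 0.21. The 10 genes were chosen with earlier results of these data known, so these shares and medians are descriptions. The effect of stage as a whole passed for 3 of the 10 (BMP4, BMP5 and GDF10), where 1.3% of all genes passed. Without pool 1 of HH13-14 the interval gave 2 calls among the 10, BMP4 and GDF10. Calls over all genes then went from 800 to 98. The effect of stage gave 1 call among the 10 without any 1 pool of HH13-14 and 1 without pool 3 of HH17-18. Over all genes that effect gave 230 calls. It gave 23, 28 and 23 without pool 1, 2 or 3 of HH13-14, and 24 without pool 3 of HH17-18.

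**Figure D1:**
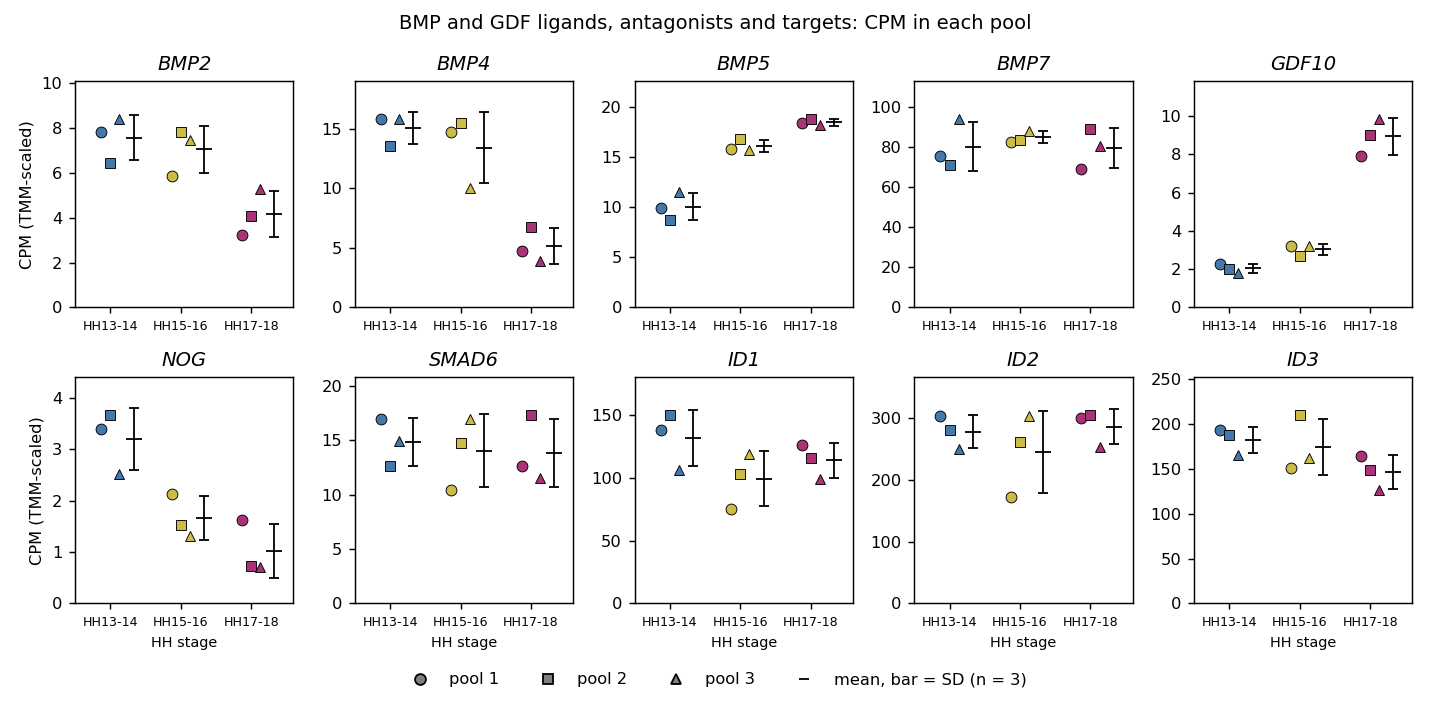
CPM of each gene (y axis, linear and starting at 0) in the 3 pools of each stage (x axis, HH stage). Points are pools, and the dash with its bar is the mean with its SD (n = 3). GDF10 and BMP5 are highest at HH17-18 and BMP4, BMP2 and NOG lowest there on average, while the pools of BMP7, SMAD6, ID1 and ID2 at HH17-18 overlap those at HH13-14.

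Among the ligands, GDF10 (ENSGALG00010020976), a BMP-family factor related to BMP3, had the largest log2 fold change of the 10 genes. It had 2.30, 2.00 and 1.82 CPM in the pools of HH13-14, then 3.20, 2.70 and 3.19 CPM at HH15-16, and 7.92, 9.03 and 9.87 CPM at HH17-18. No pool of a later stage overlapped one of an earlier stage. The log2 fold change of HH17-18 over HH13-14 was 2.13 (SE 0.19, edgeR adjusted p = 0.000923), which is a 4.37-fold difference with a 95% interval of 3.28 to 5.82. It lay between 2.04 and 2.22 in 18 alternatives and passed in all of them.

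The larger part of this log2 difference lay in the later step. HH15-16 lay at 26.8% of the way in log2 CPM, and the log2 fold change was 1.56 for HH17-18 over HH15-16 (SE 0.18, edgeR adjusted p = 0.0141) and 0.57 for HH15-16 over HH13-14 (SE 0.18, edgeR adjusted p = 0.432). GDF10 was the gene that passed in the later step, 1 of 10, where 0.079% of all genes passed, 0.0169% as higher and 0.0621% as lower. That call was lost without pool 2 of HH15-16 (edgeR adjusted p = 0.0713), without pool 3 of HH17-18 (edgeR adjusted p = 0.0705), on lane 7 alone (0.0537) and in a fit of the 2 stages alone (0.116). The difference between the steps, the later log2 fold change minus the earlier, was 0.99 (SE 0.32), with an unadjusted edgeR p of 0.0106 and an adjusted p of 0.932.

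BMP5 (ENSGALG00010001471), a ligand of the same subgroup as BMP7, also rose. Its pools held 9.91, 8.79 and 11.5 CPM at HH13-14, 15.8, 16.9 and 15.8 CPM at HH15-16, and 18.4, 18.9 and 18.2 CPM at HH17-18. The pools of each stage lay above those of the stage before, and those of HH17-18 were close to each other, with a coefficient of variation of 1.81%. The log2 fold change over the interval was 0.88 (SE 0.13, edgeR adjusted p = 0.00798), a 1.84-fold difference with a 95% interval of 1.51 to 2.23. Without pool 1 of HH13-14 the adjusted p was 0.0503, and in the other 17 alternatives it passed.

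HH15-16 lay at 77.7% of the way for BMP5. The log2 fold change was 0.68 for the earlier step (SE 0.13, edgeR adjusted p = 0.405, unadjusted p = 0.000249) and 0.20 for the later step (SE 0.12, edgeR adjusted p = 0.674). Under DESeq2 the earlier step passed, with an adjusted p of 0.000106. The difference between the steps was -0.48 (SE 0.21, edgeR adjusted p = 0.932, unadjusted p = 0.0461), of opposite sign to that of GDF10.

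BMP4 (ENSGALG00010018174), a ligand that signals through BMPR1A and BMPR1B, fell. It had 15.9, 13.5 and 15.9 CPM at HH13-14, 14.8, 15.5 and 10 CPM at HH15-16, and 4.78, 6.80 and 3.89 CPM at HH17-18. The earlier stages overlapped each other, and all 3 pools of HH17-18 lay below all pools of both. Over the interval the log2 fold change was -1.55 (SE 0.23, edgeR adjusted p = 0.009), so that HH17-18 held 0.342 of the level at HH13-14, with a 95% interval of 0.24 to 0.486. It ran from -1.8 to -1.4 over 18 alternatives, which all passed.

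For BMP4, HH15-16 lay at 11.9% of the way. The log2 fold change of the later step was -1.38 (SE 0.23), with an edgeR adjusted p of 0.0735 that missed the threshold. It passed in 4 of 18 alternatives, namely under DESeq2 (adjusted p = 1.18e-06), with no filter on low counts (edgeR adjusted p = 0.0127), and without pool 3 of HH15-16 (edgeR adjusted p = 0.0369) or pool 2 of HH17-18 (edgeR adjusted p = 0.0404). That of the earlier step was -0.17 (SE 0.22, edgeR adjusted p = 0.836).

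BMP2 (ENSGALG00010018503), the closest relative of BMP4, had a similar order of stages but did not pass. Its levels were 7.82, 6.45 and 8.40 CPM at HH13-14, 5.84, 7.79 and 7.47 CPM at HH15-16, and 3.22, 4.06 and 5.25 CPM at HH17-18. All pools of HH17-18 lay below those of the earlier stages. The log2 fold change over the interval was -0.86 (SE 0.22, edgeR adjusted p = 0.0517), and it passed in 7 of 18 alternatives, among them without pool 1 of HH15-16 (edgeR adjusted p = 0.0295).

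BMP7 (ENSGALG00010015033), a ligand known from kidney and eye development, did not pass. Its pools ranged from 71.1 to 94.2 CPM at HH13-14, from 82.7 to 88.3 CPM at HH15-16 and from 69.3 to 88.9 CPM at HH17-18, all overlapping. Between HH17-18 and HH13-14 the log2 fold change was -0.01 (SE 0.12, edgeR adjusted p = 0.966). As a fold, the 95% interval ran from 0.826 to 1.19.

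**Figure D2:**
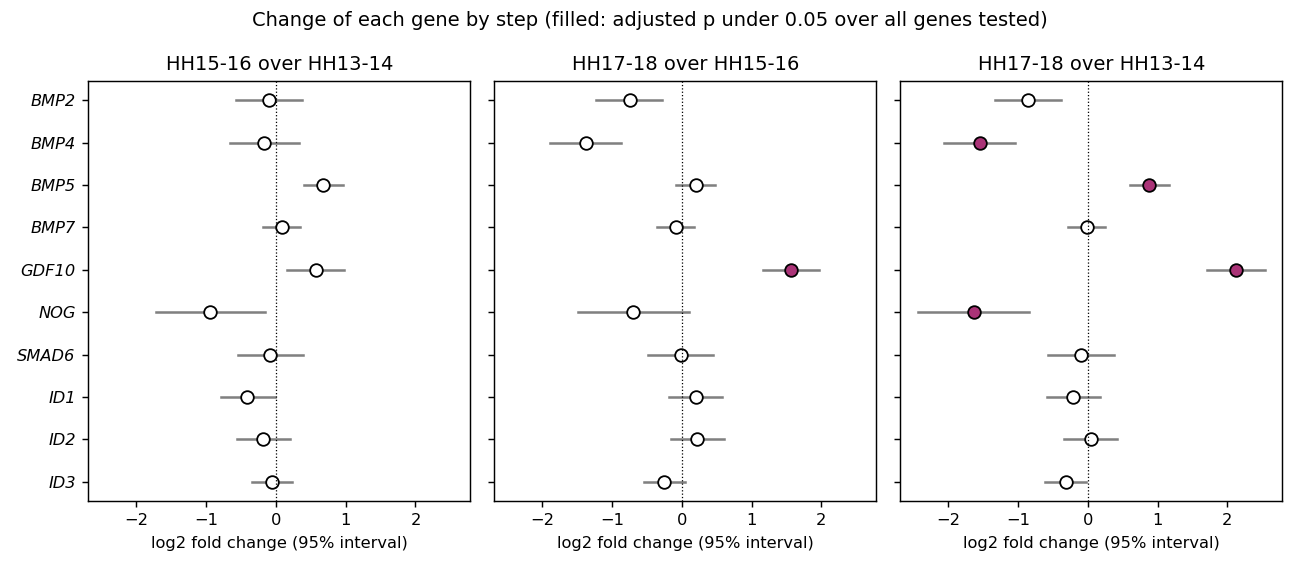
Log2 fold change (x axis) of each gene (rows) for the earlier step, the later step and the whole interval, with 95% intervals from edgeR. Filled points have an adjusted p under 0.05 over all genes tested, which holds for no gene in the earlier step, for GDF10 in the later step and for BMP4, BMP5, GDF10 and NOG over the interval.

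Ratios of counts inside a pool need no scaling between pools. They show how genes moved relative to each other and not the direction of either. The pairs below join a ligand called higher with one called lower in these same counts, so their separation follows in part from that choice. The count of GDF10 over that of BMP4 was 0.145, 0.148 and 0.115 at HH13-14, 0.217, 0.174 and 0.318 at HH15-16, and 1.66, 1.33 and 2.53 at HH17-18. Each stage lay above the one before. BMP4 over BMP5 was 1.60, 1.54 and 1.38 at HH13-14, 0.934, 0.922 and 0.636 at HH15-16, and 0.260, 0.360 and 0.214 at HH17-18, again with no overlap between stages. Since gene lengths differ, only the change of a ratio between stages has a meaning here, and no test was made on it.

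**Figure D3:**
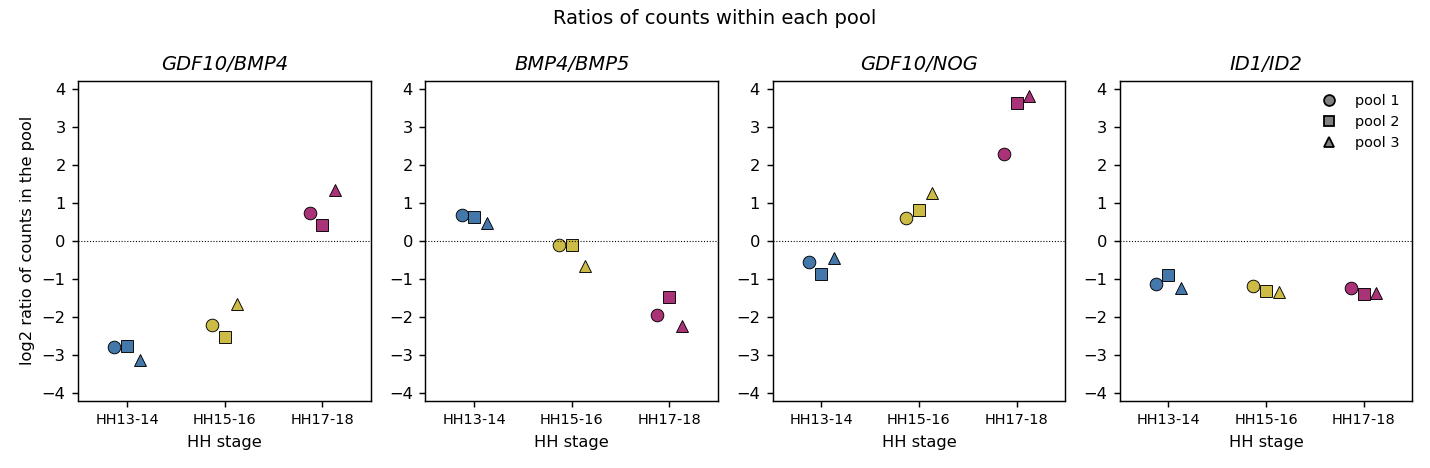
Log2 of the ratio of 2 genes' counts in a pool (y axis) by HH stage (x axis), with 1 point per pool. GDF10/BMP4 and GDF10/NOG are higher and BMP4/BMP5 lower at each later stage with no overlap. The genes of each of these pairs were called in opposite directions in these same counts. ID1/ID2 stays between 0.381 and 0.534 (before the logarithm) in all 9 pools.

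The antagonist NOG (ENSGALG00010029577) fell over the interval. It had 3.39, 3.66 and 2.52 CPM at HH13-14, 2.13, 1.53 and 1.32 CPM at HH15-16, and 1.62, 0.731 and 0.705 CPM at HH17-18. The pools of HH13-14 lay above all later pools, and those of HH15-16 and HH17-18 overlapped. Over the interval NOG had a log2 change of -1.64 (SE 0.36, edgeR adjusted p = 0.0337), or 0.321 of the level at HH13-14 with a 95% interval of 0.184 to 0.56. The log2 fold change of the earlier step was -0.94 (SE 0.35, edgeR adjusted p = 0.447) and that of the later step -0.70 (SE 0.36, edgeR adjusted p = 0.593).

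NOG had the fewest reads of the 10 genes, 1061 counts over all pools. The 3 pools of HH17-18 held 106, 40 and 42 counts, and the exact Poisson 95% interval of the lowest ran from 28.6 to 54.5, which covers counting error only. The lanes of pool 3 of HH17-18 gave 30 counts on lane 7 and 12 on lane 8, and on lane 8 alone the call was lost (edgeR adjusted p = 0.095). It was also lost without any 1 pool of HH13-14 (edgeR adjusted p of 0.0862 to 0.124) and without pool 2 or 3 of HH17-18 (0.107 and 0.104). GDF10 and NOG were called in opposite directions in these same counts, so a separation of their ratio follows in part from that choice. GDF10 over NOG, by counts, was 0.546 to 0.725 at HH13-14, 1.5 to 2.42 at HH15-16 and 4.88 to 14.0 at HH17-18. BMP4 over NOG was 3.69 to 6.30, 6.93 to 10.1 and 2.94 to 9.30 at these stages, and the range at HH17-18 overlapped both earlier ones.

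The inhibitor SMAD6 (ENSGALG00010018054), which blocks BMP receptors and SMAD1 from inside the cell and is itself a BMP target, did not pass. Its levels were 17, 12.6 and 14.9 CPM at HH13-14, 10.4, 14.8 and 16.9 CPM at HH15-16, and 12.7, 17.3 and 11.5 CPM at HH17-18. The stages overlapped throughout, and the log2 fold change over the interval was -0.10 (SE 0.21, edgeR adjusted p = 0.83), with a 95% interval of 0.672 to 1.29 as a fold.

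The ID genes encode proteins that bind basic helix-loop-helix factors and keep them from DNA, and they are among the most direct BMP targets. None of the 3 passed in any comparison in edgeR. ID1 (ENSGALG00010013018) had 139, 150 and 107 CPM at HH13-14, 75.5, 104 and 119 CPM at HH15-16, and 127, 116 and 99.1 CPM at HH17-18. Its stages overlapped, with a log2 fold change over the interval of -0.21 (SE 0.17, edgeR adjusted p = 0.526) and of -0.41 for the earlier step (SE 0.17, edgeR adjusted p = 0.473, unadjusted p = 0.0394).

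ID2 (ENSGALG00010003117) ranged from 249 to 303 CPM at HH13-14, from 172 to 303 CPM at HH15-16 and from 254 to 305 CPM at HH17-18. Its log2 fold change over the interval was 0.04 (SE 0.17, edgeR adjusted p = 0.915), with a 95% interval of -0.34 to 0.42. ID3 (ENSGALG00010016447) had 193, 188 and 166 CPM at HH13-14, 152, 210 and 162 CPM at HH15-16, and 164, 148 and 127 CPM at HH17-18. The pools of HH17-18 lay just below those of HH13-14, and the log2 fold change was -0.32 (SE 0.13, edgeR adjusted p = 0.196, unadjusted p = 0.0359). The pools of 6 of the 10 genes did not overlap between these stages, 2 higher and 4 lower, where 31.4% of all genes did not, 16% as higher and 15.4% as lower.

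SMAD6, ID1 and ID2 were lowest in the same pool. Pool 1 of HH15-16 deviated from the mean of its stage by -0.40, -0.37 and -0.47 in log2 CPM for these genes, and by -0.19 for ID3. ID1 and ID2 tended to deviate to the same side. The correlation of their deviations from the stage means was 0.905 over 9 pools and 0.846 without that pool. Deviations within a stage cancel out, so all correlations of deviations given here rest on fewer free values than pools. For log2 CPM itself Pearson's r of ID1 and ID2 was 0.857 and Spearman's rho 0.667 (0.842 for r without the 2 pools farthest from the median of ID1). For SMAD6 and ID2 the correlation of deviations was 0.802, and 0.602 without that pool. For log2 CPM itself their r was 0.722, and 0.314 without 2 pools left out by the same rule. These pairs are a selection from all pairs of the genes described here. Other pairs had deviations of similar strength but opposite sides, with correlations of -0.866 for BMP2 and NOG and -0.812 for BMP7 and NOG. Both genes of a pair were read in the same pools, so these are descriptions. The parts of library preparation and tissue makeup in them were not tested.

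**Figure D4:**
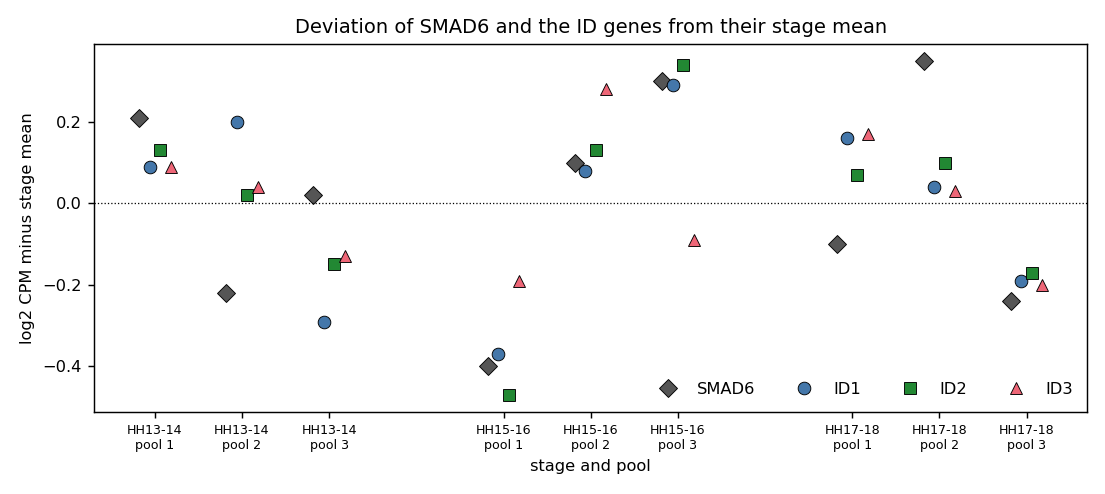
Log2 CPM minus the mean of its stage (y axis) for SMAD6, ID1, ID2 and ID3 in each pool (x axis). Pool 1 of HH15-16 is the lowest of its stage for all of them, and the points of ID1 and ID2 lie close together in most pools.

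That pool had the lowest sum of its stage for 8 of the 9 marker lists, with 259 CPM for neural crest, 264 CPM for placode and 1720 CPM for head mesenchyme among them. The exception was the neural tube list, where it had the highest sum. The part of tissue makeup in the low values of ID1, ID2 and SMAD6 was not tested. Without the pool the log2 fold change of ID1 for the earlier step was -0.25 in place of -0.41, that of ID2 0.0111 in place of -0.18, and that of ID3 0.0246 in place of -0.06. That of SMAD6 was 0.0884 in place of -0.08. None of these passed in edgeR with or without the pool. The calls for BMP4, BMP5, GDF10 and NOG over the interval all held without it, and their log2 fold changes were then -1.56, 0.865, 2.11 and -1.65.

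For the earlier step as a whole, 0 of the 10 genes passed in edgeR, as did 0% of all genes. At an unadjusted p under 0.05 there were 4 of 10 (BMP5 and GDF10 higher, NOG and ID1 lower), where 10.1% of all genes were. DESeq2 called 1 of the 10, which was BMP5, and 103 of all genes. The pools of 3 of the 10 did not overlap, 2 higher and 1 lower, against 16.6% of all genes, 8.03% as higher and 8.6% as lower. For the later step 3 of the 10 had an unadjusted p under 0.05, where 9.32% of all genes did. The pools of 4 of the 10 did not overlap (BMP5 and GDF10 higher, BMP2 and BMP4 lower), against 11.5% of all genes, 5.94% as higher and 5.55% as lower. For the difference between steps 0 of the 10 passed in edgeR and 0 in DESeq2, where edgeR called 0.00564% of all genes, all of them lower. Of the 10, 3 had an unadjusted p under 0.05 (BMP4, BMP5 and GDF10), where 4.36% of all genes did.

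The other genes of the pathway were read from a list of 89 symbols, of which 76 were in the table and 74 were tested. Between HH17-18 and HH13-14 the edgeR test called 11 of the 74, 5 higher and 6 lower, where 4.51% of all genes passed, 2.4% as higher and 2.12% as lower. The median log2 fold change was 0.11 over the 74 and 0.02 over all genes. This list too was chosen with earlier results of these data known, so these values are descriptions. At an unadjusted p under 0.05 there were 19 higher and 14 lower, where 21.6% of all genes had such a p. The count of 11 at an adjusted p under 0.05 fell to 1 without any 1 pool of HH13-14. Calls over all genes then went from 800 to 98, 120 and 106 without pool 1, 2 or 3. The pathway count fell to 4 without pool 2 or without pool 3 of HH17-18, where all genes gave 290 and 177. That count was 22 without pool 1 of HH15-16, where all genes gave 1508. In each consecutive step the count was 0 of 74 in edgeR, with 7 at an unadjusted p under 0.05 in the earlier step, where 10.1% of all genes had one, and 16 in the later one, where 9.32% did.

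Receptors made up 15 of the 74, and 0 passed in edgeR over the interval, with 3 higher and 4 lower at an unadjusted p under 0.05, beside 21.6% of all genes. The type I receptor BMPR1A averaged 130, 124 and 117 CPM over the 3 stages, with a log2 change of -0.15 (SE 0.12, edgeR adjusted p = 0.506). BMPR1B, another type I receptor, had 21.4, 34.4 and 34.8 CPM at HH13-14, 25.4, 20.2 and 23.8 CPM at HH15-16, and 24.0, 21.0 and 16.8 CPM at HH17-18, a log2 change of -0.55 (SE 0.20, edgeR adjusted p = 0.14). BMPR2, a type II receptor, had a log2 change of 0.19 (SE 0.11, edgeR adjusted p = 0.358). ACVR1 and SMAD4 were looked for and not matched by symbol, so they are not analysed here.

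Of the 7 transducers tested 2 passed as higher and 0 as lower, where 2.4% and 2.12% of all genes did. SMAD3, which carries signals of TGF-beta and activin, had 187, 189 and 167 CPM at HH13-14, 234, 195 and 197 CPM at HH15-16, and 244, 269 and 322 CPM at HH17-18. All pools of each stage lay above those of the stage before, with a log2 fold change over the interval of 0.62 (SE 0.11, edgeR adjusted p = 0.0177), a call lost in 4 of 18 alternatives. SMAD5, which carries BMP signals, also rose, by 0.29 in log2 (SE 0.07, edgeR adjusted p = 0.0386), and fell short of the threshold in 9 of 18 alternatives. SMAD1, the other BMP transducer named here, had 62.3, 63.0 and 62.0 CPM at HH13-14, 64.3, 70.6 and 70.9 CPM at HH15-16, and 68.7, 69.3 and 68.2 CPM at HH17-18. Its log2 fold change was 0.14 (SE 0.07, edgeR adjusted p = 0.286).

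Genes listed as antagonists and inhibitors were the largest group, with 23 tested. The group was set by the list, and the role of each gene, FSTL4 and FSTL5 among them, was not examined. Of these 3 passed as higher and 2 as lower, where 2.4% and 2.12% of all genes did. FSTL3, a follistatin-like protein that binds activins and related ligands, had 0.654, 0.71 and 0.585 CPM at HH13-14, 0.767, 0.939 and 1.64 CPM at HH15-16, and 1.98, 4.37 and 3.56 CPM at HH17-18. Every pool of a later stage was above every pool of an earlier one, and the log2 fold change over the interval was 2.34 (SE 0.38, edgeR adjusted p = 0.0118). BAMBI, a receptor without a kinase that is known to dampen BMP and TGF-beta signals, had 27.6, 25.7 and 21.9 CPM at HH13-14, 21.1, 35.5 and 40.8 CPM at HH15-16, and 46.8, 60.6 and 48.5 CPM at HH17-18. It rose by a log2 change of 1.05 (SE 0.21, edgeR adjusted p = 0.027), and FSTL5 by 1.22 (SE 0.27, edgeR adjusted p = 0.0344). Of 18 alternatives the call was lost in 3 for FSTL3, in 5 for BAMBI and in 6 for FSTL5.

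FSTL4, a follistatin-like protein, had 11.9, 13.2 and 15.2 CPM at HH13-14, 13, 11.2 and 11.3 CPM at HH15-16, and 8.03, 7.09 and 9.48 CPM at HH17-18. All pools of HH17-18 lay below those of the earlier stages. It fell, with a log2 change of -0.72 (SE 0.16, edgeR adjusted p = 0.0334), and fell short of the threshold in 7 of 18. CHRD, which encodes the BMP-binding protein chordin, averaged 18.1, 13.8 and 11.5 CPM and did not pass, with a log2 change of -0.66 (SE 0.24, edgeR adjusted p = 0.145) that passed in 1 of 18 alternatives.

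**Figure D5:**
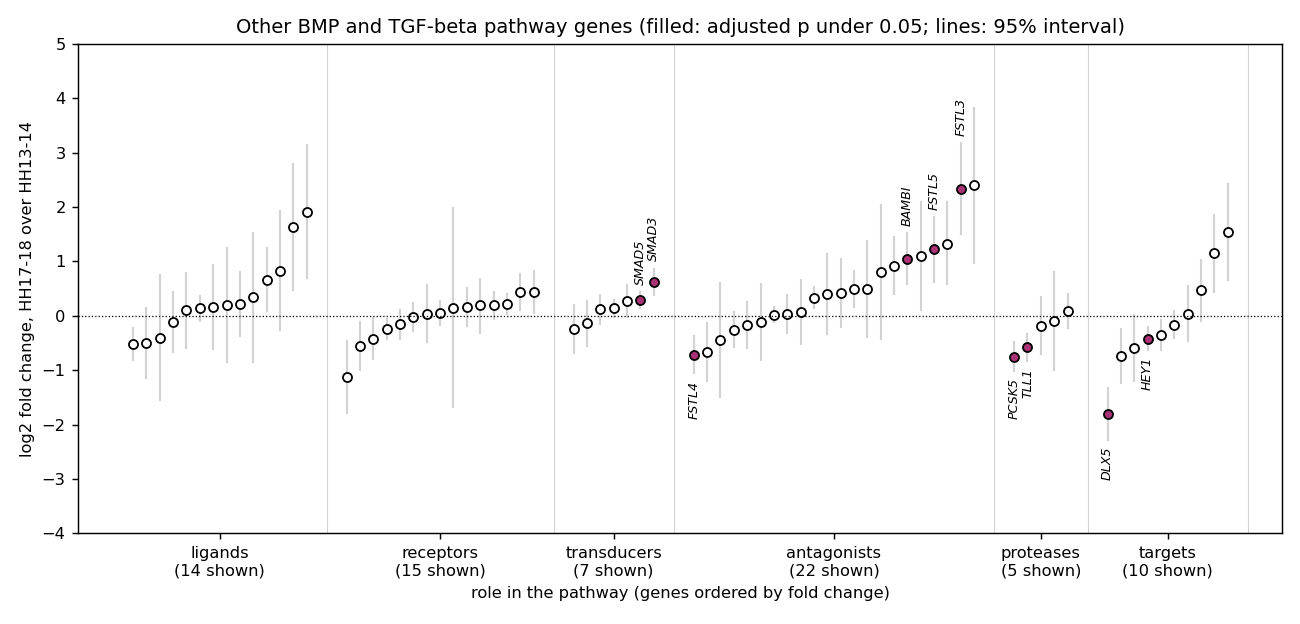
Log2 fold change of HH17-18 over HH13-14 (y axis) for 73 of the 74 other genes of BMP and TGF-beta signalling, grouped by role (x axis) and ordered within each role, with 95% intervals. Filled and named points, 5 higher and 5 lower, have an edgeR adjusted p under 0.05 over all genes tested.

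BMPER, a secreted protein that binds BMPs and can dampen or help their signals, was lowest at HH15-16. It had 3.97, 3.55 and 3.40 CPM at HH13-14, 1.72, 2.15 and 2.21 CPM at HH15-16, and 5.04, 15.1 and 7.48 CPM at HH17-18. No stage overlapped another, and the effect of stage passed (edgeR adjusted p = 0.032). No pair of stages did, with an edgeR adjusted p of 0.0545 for the interval and 0.0666 for the later step, whose log2 fold changes were 1.33 and 2.18. Over the interval BMPER passed in 5 of 18 alternatives, with log2 fold changes of 0.779 to 1.63 over all of them.

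Among the 5 proteases that ripen the ligands or cut their inhibitors, 2 passed as lower and 0 as higher. Of all genes 2.12% and 2.4% did. PCSK5, a proprotein convertase, had 35.1, 36.4 and 39.1 CPM at HH13-14, 30.8, 26.7 and 29.1 CPM at HH15-16, and 25.1, 21.8 and 18.8 CPM at HH17-18, a log2 change of -0.75 (SE 0.12, edgeR adjusted p = 0.0117). The stages did not overlap. TLL1, a tolloid protease that cuts chordin, had 27.2, 29.1 and 28.4 CPM at HH13-14, 23.8, 25.1 and 23.1 CPM at HH15-16, and 21.4, 18.6 and 16.6 CPM at HH17-18. Its log2 fold change was -0.58 (SE 0.11, edgeR adjusted p = 0.0243), again with no overlap between stages. Of 18 alternatives the call was lost in 3 for PCSK5 and in 5 for TLL1.

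Of 10 further target genes 2 passed as lower and 0 as higher, where 2.12% and 2.4% of all genes did. At an unadjusted edgeR p under 0.05 there were 2 higher and 4 lower, where 21.6% of all genes had such a p. HEY1, a transcription factor that also answers Notch, had 117, 119 and 123 CPM at HH13-14, 95.9, 104 and 113 CPM at HH15-16, and 84.4, 82.9 and 101 CPM at HH17-18, a log2 change of -0.42 (SE 0.09, edgeR adjusted p = 0.0356). DLX5, an ectodermal and crest homeobox gene, had 26.5 to 30.0 CPM at HH13-14, 11 to 20.6 CPM at HH15-16 and 7.15 to 9.91 CPM at HH17-18. Its log2 fold change was -1.80 (SE 0.22, edgeR adjusted p = 0.00467). The call for HEY1 was lost in 5 of 18 alternatives and that for DLX5 in 0. ID4, the remaining ID gene, averaged 33.8, 28.8 and 30.2 CPM and did not pass, with a log2 change of -0.16 (SE 0.11, edgeR adjusted p = 0.448).

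Other ligands of the superfamily numbered 14 among the genes tested, and 0 passed in edgeR over the interval, with 3 higher and 1 lower at an unadjusted p under 0.05, a share near the 21.6% of all genes. BMP6 and TGFB3 are given as examples chosen after their values were seen. BMP6, of the same subgroup as BMP5 and BMP7, ranged from 6.06 to 7.33, from 3.73 to 7.77 and from 5.56 to 6.55 CPM at the 3 stages, with a log2 change of -0.12 (SE 0.25, edgeR adjusted p = 0.833). TGFB3, a TGF-beta ligand, ranged from 108 to 119, from 74.6 to 114 and from 78.3 to 83.7 CPM, with a log2 change of -0.51 (SE 0.13, edgeR adjusted p = 0.0562).

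Some cell type markers changed over the same interval as the 4 genes called, in which 2.4% of all genes passed as higher and 2.12% as lower. Of 7 neuronal markers 3 rose (STMN2, NEFL and NEFM), and their list summed to 1080 to 1140, 889 to 1240 and 1170 to 1850 CPM. Of 6 macrophage markers 4 rose, and of 4 blood markers 2 rose. Of 7 surface ectoderm markers GRHL3 and TP63 rose and EPCAM fell, and the list summed to 245 to 247, 196 to 343 and 226 to 316 CPM. Of 8 neural tube markers tested 0 passed in edgeR, while the 9 found summed to 327 to 420, 186 to 571 and 117 to 372 CPM. Of 6 neural crest markers ETS1 fell, and the list summed to 480 to 572, 259 to 529 and 289 to 458 CPM. Of 8 head mesenchyme markers 0 passed, with sums of 2470 to 2710, 1720 to 3210 and 2570 to 3880 CPM. The 6 endothelial markers summed to 287 to 329, 211 to 316 and 247 to 309 CPM, with SOX18 lower, and the 8 placode markers to 359 to 465, 264 to 426 and 337 to 445 CPM, with 0 called. The part of these lists in the changes of the BMP genes was not tested.

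For each of the 4 genes called over the interval, the 3 genes with the most similar pattern were taken by Pearson's r of log2 CPM over the 9 pools, among 9722 or 9723 other genes with a symbol and a mean of at least 5 CPM. For BMP4 they were MFGE8, TNFSF10 and CCDC3, with r of 0.973, 0.971 and 0.956. BMP5 was nearest to ZDHHC15, LIX1 and YPEL5, with r of 0.974, 0.963 and 0.962. LIX1 also rose, with means of 3.87, 9.18 and 13.5 CPM at HH13-14, HH15-16 and HH17-18 (log2 fold change 1.80, edgeR adjusted p = 0.00514). GDF10 was nearest to ANGPTL2, CUX2 and ALDH3A2, with r of 0.977, 0.962 and 0.962, and NOG to EIF3A, NSUN2 and GNPTG, with r of 0.984, 0.978 and 0.976. The largest of many correlations over 9 pools that share stages can be high by selection alone, so these are descriptions.

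In the RefSeq annotation of GRCg7b, the build that the submitters' processing notes name, GDF10 lies on chromosome 6 from 18779996 to 18794409 and BMP5 on chromosome 3 from 87041515 to 87097393. BMP4 lies on chromosome 5 from 58328250 to 58331110. SMAD6 lies on chromosome 10 from 18702063 to 18729466, BMP7 on chromosome 20 from 12024248 to 12068416, and ID1 on the same chromosome from 10349483 to 10350251. ID2 lies on chromosome 3 from 95549855 to 95551981 and ID3 on chromosome 23 from 2577964 to 2579597. None of these overlaps another RefSeq gene. NOG lies on chromosome 18 from 6821358 to 6823072 and overlaps 1 long noncoding RNA gene. BMP2 spans 243773 bases of chromosome 3, from 14796478 to 15040250, and overlaps 6 other genes, among them CCT4. The strands of these neighbours and any overlap of exons were not examined, and whether strand was used in counting is not stated. The counts carry Ensembl identifiers, so the RefSeq spans need not match the gene models that were counted. Whether reads of a neighbour entered the counts of NOG, BMP2 or the other genes is therefore not known.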

How the data were processed

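The authors deposited whole-number counts per gene for 18 libraries, with Ensembl identifiers and symbols. Per the submitters' processing notes, Trim Galore, HISAT2, featureCounts and the build GRCg7b were used; versions, strand setting and whether reads or fragments were counted are not given in the sources used here. Columns were assigned to samples through the names in the header, and 0 were left unused. Technical replicates were summed to 9 pools. Genes were kept by filterByExpr (17724 of 30108), scaled by TMM and fitted in 1 model without covariates with edgeR 4.0.16 in R 4.3.3. Each SE is implied by the test statistic. The procedure was run on simulated counts with the same spread for every gene and no pool standing apart, which differs from these data. DESeq2 1.42.0, other filters, single lanes, 2-stage fits, a stricter threshold, a replicate block and leaving out each pool were alternatives, and limma 3.58.1 voom with sample weights was added after the data were seen. The stricter threshold, an adjusted p under 0.01, was applied to counts of calls and is not among the 18 alternatives given per gene. Correlations used log2 CPM at a prior count of 2.

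The 10 genes, the pathway list, the marker lists and the rules were chosen with earlier results of these data known. Named by rule were the 10 genes, pathway genes that passed in any stage test and 10 core genes whatever their result, and the 3 most similar genes for each of the 10 called over the interval. Further pathway genes were chosen after their values were seen, which is said where they appear. Genes with overlapping neighbours are uncertain. The values of 1 pathway gene, which stays in the counts, are not reported here. Coordinates come from RefSeq genes matched by symbol (10 of 10). No sequence was used here.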

Additional observations from a re-analysis of the deposited data

How the results depend on the processing

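The log2 fold changes of the 10 genes and of the pathway genes named by rule gave 1052 recomputed values. Of these, 937 kept their direction and side of the threshold, 66 fell short of it, 20 newly passed and 29 reversed. Over the interval the 10 genes gave 4 calls, 3 at an adjusted p under 0.01 (NOG being lost) and 2 to 5 without 1 pool. The effect of stage (3 calls) gave 5 with DESeq2 and 5 with voom, 1 at an adjusted p under 0.01 and 1 to 3 without 1 pool. The earlier step (0 calls) gave 1 with DESeq2. The later step (1 call) gave 3 with DESeq2, 2 with no filter, 0 on lane 7, 0 in a fit of 2 stages, 0 at an adjusted p under 0.01 and 0 to 2 without 1 pool. The other pathway genes (11 calls) gave 24 with DESeq2, 18 with no filter, 19 in a fit of 2 stages, 1 at an adjusted p under 0.01, 21 with voom and 1 to 22 without 1 pool. Over all genes the interval (800 calls) gave 1784 with DESeq2, 1744 with voom, 935 with no filter and 1390 in a fit of 2 stages. It gave 86 at an adjusted p under 0.01 and 98 to 1508 without 1 pool. The effect of stage (230) gave 1371 with DESeq2, 998 with voom, 530 with no filter and 18 at 0.01. Without 1 pool it gave 23 to 606. The later step (14) gave 345 with DESeq2, 62 with no filter, 3 on lane 7 and 1 in a fit of 2 stages. It gave 2 at 0.01 and 3 to 36 without 1 pool. The earlier step (0) gave 103 with DESeq2, 2 with voom, 2 with no filter, 1 on lane 8 and 0 to 2 without 1 pool. The causes were not tested.

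A replicate block on the pool number gave 5 calls among the 10 genes over the interval, BMP2 being added. It gave 4 for the effect of stage, NOG being added, and 17 among the other pathway genes over the interval. Over all genes the block gave 876 calls for the interval in place of 800, and 334 for the effect of stage in place of 230. Deviations of same-numbered pools had r of -0.0633 to 0.303 over 9 pairs (mean 0.0658, 3 over 0.1), against -0.399 to 0.322 over 18 pairs of different numbers (mean -0.0332, 2 over 0.1), and 5 of 9 pools were closest to their own number. Deviations within a stage cancel out, so the means of both kinds of pairs depend on each other and cannot decide on pairing. Since not every same-numbered pair was over 0.1 and the labels name no shared source, the numbers were not taken as pairs. Whether pools are related is not known. The block changed no other call among the 10 genes.

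Some log2 values changed sign, none of them called. For the earlier step they were 0.0122 for BMP2 and 0.0211 for SMAD6 with voom, and without 1 pool the ranges were -0.2 to 0.007 for BMP2, -0.285 to 0.00482 for BMP4, -0.237 to 0.0884 for SMAD6, -0.362 to 0.0111 for ID2 and -0.217 to 0.0246 for ID3. For the later step SMAD6 was 0.0601 on lane 8 and -0.219 to 0.134 without 1 pool. Over the interval BMP7 was 0.0429 on lane 7, 0.0214 with voom and -0.099 to 0.117 without 1 pool, ID2 was -0.00572 with voom and -0.0315 to 0.108, and SMAD6 was -0.299 to 0.00514. The difference between steps was -0.0824 on lane 7 and -0.205 with voom for SMAD6, and without 1 pool it ran from -0.294 to 0.371 for SMAD6, -0.279 to 0.687 for NOG and -0.379 to 0.117 for ID3.

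Between the 2 lanes of a pool, NOG differed by a median of 0.19 and up to 1.26 in log2, GDF10 by 0.22 and up to 0.52, and ID1 by 0.03 and up to 0.09.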

Other observations

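The following pathway genes did not pass over the interval and were chosen after their values were seen. FST, which encodes the activin and BMP antagonist follistatin, had 24.5, 22.4 and 18.6 CPM at HH13-14, 24.5, 18.4 and 14.3 CPM at HH15-16, and 31.1, 5.69 and 11.1 CPM at HH17-18. Its log2 fold change of HH17-18 over HH13-14 was -0.45 (SE 0.47, edgeR adjusted p = 0.635) and ran from -1.38 to -0.0473 over the alternatives. The lowest of these was the value without pool 1 of HH17-18, which passed (edgeR adjusted p = 0.0458). CER1, a secreted antagonist of BMP and Nodal known from early embryos, ranged from 5.16 to 9.04 CPM at HH13-14, from 3.31 to 23.9 CPM at HH15-16 and from 16.5 to 58.2 CPM at HH17-18, with a log2 fold change over the interval of 2.40 (SE 0.64, edgeR adjusted p = 0.0636). GATA2, a transcription factor of BMP-exposed ectoderm, had a value of 1.15 in log2 (SE 0.32, edgeR adjusted p = 0.0719). That of the related GATA3 was 1.54 (SE 0.40, edgeR adjusted p = 0.0582). TFAP2A, another gene of this ectoderm and of neural crest, had one of -0.74 (SE 0.23, edgeR adjusted p = 0.0933).

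Other genes of the pathway had overlapping stages, and these too were chosen after their values were seen. TWSG1, a BMP-binding protein, ranged from 86.4 to 90.3, from 86.9 to 93.0 and from 88.7 to 92.3 CPM at HH13-14, HH15-16 and HH17-18. SMAD7, an inhibitory SMAD like SMAD6, ranged from 14.5 to 19.5, from 19.1 to 21.4 and from 14.6 to 20.6 CPM, with a log2 fold change over the interval of 0.04 (SE 0.16, edgeR adjusted p = 0.915).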
